A study of Mus musculus with 8 samples.

Results

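The ectonucleotidases of the Entpd family and Nt5e, together with 2 genes that run antisense to the Entpd4 genes, were followed through T regulatory cells (Tregs) differentiated from mice labelled Alox15-/- and WT. The 9 genes were Entpd1, Nt5e, Entpd4, Entpd4b, Entpd5, Entpd6, Entpd7, Gm27177 and Gm16867, taken by symbol from a table of raw counts that lists 28239 symbols. All 9 were in the table and all 9 passed the filter of 2 CPM (reads scaled to the size of the library) reached in 4 or more libraries, as did 12700 symbols in all (45.0%). The genes were chosen by their symbol, and some were selected on their values in the comparison of these same libraries, in which Gm27177 and Gm16867 had been seen to fall. Their differences between the groups are therefore a description: no p is given for them, intervals and calls of the fit across all genes are quoted as values only, and nothing is concluded from them.

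Naïve CD4+ T cells had been taken from spleens by negative immunomagnetic selection and cultured for 2 days with IL-2, TGF-β and beads that engage CD3 and CD28, in both groups alike. There were 4 libraries from Alox15-/- mice, whose genotype label stands for loss of the lipoxygenase gene Alox15, on the C57BL/6 background, and 4 from WT C57BL/6 mice. The WT mice came from Charles River and the Alox15-/- mice from The Jackson Laboratory, so genotype and source of the animals cannot be told apart. The cells were not sorted again after culture as far as the labels say. The methods name a MACE-seq kit, which sequences 1 fragment near the 3′ end of each transcript, whereas the labels name a small RNA kit. The labels also speak of spleens preserved in lysis buffer, whereas the methods describe cultured cells. The account of the culture given above is that of the methods.

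The total count ranged from 3723151 to 6952596 over the 4 Alox15-/- libraries and from 4810125 to 9538962 over the 4 WT libraries (exact permutation test, two-sided, p = 0.20). The level of the targeted gene, Alox15, was 66.8 ± 3.18 CPM where the label is Alox15-/- (SD, n = 4). Where the label is WT it was 5.28 ± 3.59 CPM (SD, n = 4). Reads of Alox15 were thus higher where the label names loss of the gene. A count of reads near the 3′ end does not measure the enzyme, and the reason for this difference was not tested. Every direction below is read from the labels, with WT as the base, and "Alox15-/- 1" means the library labelled Alox15-/- 1. Summed markers of T cells (1986 to 2314 CPM against 2194 to 2569) and of Tregs (1655 to 1811 CPM against 1745 to 1940), were present in all 8 libraries, with Foxp3 at 71.4 to 113 against 92.9 to 194 CPM. Within the T cell list, Cd4 was lower in every Alox15-/- library (209 to 296 against 326 to 350 CPM) and Cd3g higher (151 to 169 against 110 to 139 CPM). Summed markers of 5 other kinds of cell were higher in all 4 libraries labelled Alox15-/- (exact permutation test, two-sided, adjusted p = 0.0457 for each, from the smallest p that 4 against 4 allow, 0.0286). These sums were 901 to 3465 against 32.3 to 121 CPM for erythroid genes, 43.2 to 322 against 8.83 to 15.1 CPM for myeloid genes, and 78.6 to 144 against 26.8 to 44.6 CPM for the list of NK and γδ T cell genes. That list was carried by the γδ T cell receptor genes, such as Trdc at 44.4 to 75.0 against 11.9 to 22.4 CPM, while the NK markers Ncr1 (0 to 0.721 against 0 to 1.25 CPM) and Klrb1c (0.481 to 2.97 against 0.159 to 1.72 CPM) overlapped. The sums were 128 to 315 against 58.0 to 80.6 CPM for mast cell and basophil genes and 19.5 to 68.8 against 1.25 to 6.47 CPM for eosinophil genes, the latter from Prg2 and Epx, while Siglecf and Il5ra did not exceed 0.721 CPM in any library. In such mixed RNA, fewer cells of a type and less RNA per cell cannot be told apart.

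ATP that leaves a cell is a danger signal, and ectonucleotidases take it apart step by step. CD39, the product of Entpd1, removes phosphates from ATP and ADP to leave AMP, and CD73, the product of Nt5e, turns AMP into adenosine, which dampens T cells through its receptors. Mouse Tregs are known for carrying both on their surface. The relatives Entpd4, Entpd5, Entpd6 and Entpd7 act mostly inside the secretory pathway. Entpd4, Entpd5 and Entpd6 act there on nucleoside diphosphates such as UDP and GDP, which are left over when sugars are added to proteins.

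The Entpd enzymes share a short stretch, the first apyrase conserved region, which holds part of the phosphate binding site. Its coding sequence shows how close the genes are to each other, so it is given for the 6 Entpd genes from the GENCODE transcripts of GRCm38, with the 5 codons for aspartate, any residue, glycine and a pair of serines or threonines in capitals.
Entpd1: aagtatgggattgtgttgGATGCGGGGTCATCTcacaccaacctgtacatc
Entpd4: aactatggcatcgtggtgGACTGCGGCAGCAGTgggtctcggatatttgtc
Entpd4b: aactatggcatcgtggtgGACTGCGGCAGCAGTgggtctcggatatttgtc
Entpd5: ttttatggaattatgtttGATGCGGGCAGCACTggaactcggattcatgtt
Entpd6: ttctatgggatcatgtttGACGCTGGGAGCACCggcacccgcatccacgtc
Entpd7: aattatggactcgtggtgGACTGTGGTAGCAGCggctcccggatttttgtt
The stretches lie at chr14:69350758-69350808 on the plus strand for Entpd4, at chr14:69569008-69569058 on the plus strand for Entpd4b, at chr12:84396704-84396754 on the minus strand for Entpd5, at chr2:150753258-150753308 on the plus strand for Entpd6 and at chr19:43704254-43704304 on the plus strand for Entpd7, whereas that of Entpd1 on chromosome 19 spans an exon junction. Of these 51 bases, Entpd4b shares all 51 with Entpd4, Entpd7 shares 41, Entpd5 32, Entpd6 31 and Entpd1 24. The translated proteins gave the same order at the top, with an identity of 100% between Entpd4 and Entpd4b over 613 residues and of 60.4% between Entpd4 and Entpd7. Entpd5 and Entpd6 were 47.3% identical, and Entpd1 was 23.0% to 25.0% identical to the other Entpd proteins. Nt5e belongs to another enzyme family and was 15.7% to 18.4% identical to the Entpd proteins.

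The 4 genes of chromosome 14 lie in a duplicated segment. Entpd4 (ENSMUSG00000095463.8, chr14:69337174-69367270) and Entpd4b (ENSMUSG00000022066.16, chr14:69555424-69585520) are both on the plus strand, 218.25 kb apart. Gm16867 (ENSMUSG00000093954.8, chr14:69363504-69503362), annotated as protein coding, and Gm27177 (ENSMUSG00000098975.7, chr14:69582164-69683286), annotated as antisense, are on the minus strand and end inside Entpd4 and Entpd4b. The transcripts Entpd4-206 and Entpd4b-204 were the same at every one of their 3589 positions, and all 13 exons lay at the same offset. Over its whole length of 2946 bases, Gm27177-201 was the same as the end of Gm16867-207. In a search for other transcripts at least 90% identical over at least 300 bases, Entpd1, Nt5e, Entpd5 and Entpd6 matched 0 other genes. The genes of chromosome 14 matched each other, the small antisense genes Gm27176 and Gm27221 opposite Entpd4 and Entpd4b, and, for Gm16867, Slc25a37, Gm31748 and Gm37847. Entpd7 matched 1 gene, Cox15, on the opposite strand.

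A read from the 3′ end of Entpd4-206 therefore carries no base that tells Entpd4 from Entpd4b. In the last 500 bases of each, 451 of 451 windows of 50 bases were found in the other copy, and the same was true of Gm27177 and Gm16867. All 451 windows of Gm27177 and Gm16867 were also found on the opposite strand of Entpd4 and Entpd4b, and 2110 exonic bases of Gm16867 (27.1% of 7788) and 1700 of Gm27177 (24.6% of 6906) lie opposite exons of Entpd4 and Entpd4b. The strand setting of the counting and its treatment of reads with several matches are not given in the sources used here. In the other direction, 0 of 451 windows from the last 500 bases of Entpd4-206 and of Entpd4b-204 were found on the opposite strand of another gene. Without strand, a read from the end of Gm27177 or Gm16867 therefore cannot be told apart from one of Entpd4 or Entpd4b, whereas a read from the end of Entpd4-206 or Entpd4b-204 is uncertain as to its copy and not as to its strand. Reads from elsewhere in these genes, where exons overlap, are not covered by this.

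The reads were divided almost evenly between the copies. Of 1431 reads on Entpd4 and Entpd4b over all libraries, 737 (51.5%, 95% Wilson interval 48.9% to 54.1%) were listed under Entpd4. The share was between 43.9% and 55.7% in single libraries, and the interval held 50% in 8 of 8. Of 376 reads on Gm27177 and Gm16867, 191 (50.8%, interval 45.8% to 55.8%) were listed under Gm27177, and the interval held 50% in 7 of 8 libraries. The exception was Alox15-/- 3, with 1 of 8 reads (12.5%, interval 2.24% to 47.1%). These intervals cover counting error only.

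**Figure D1:**
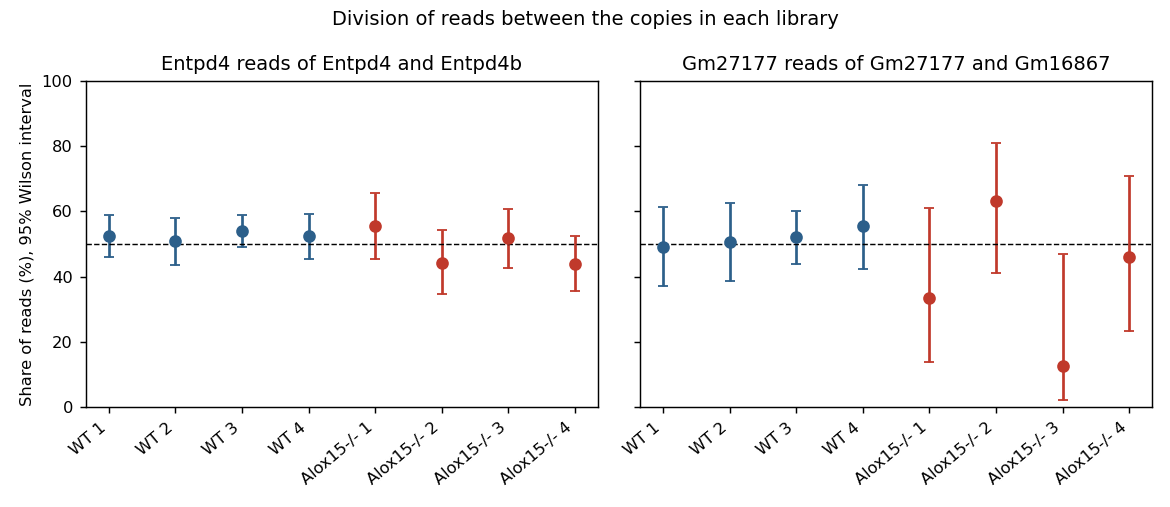
Percent of the reads of a pair of copies that are listed under the first copy, in each of the 4 WT (blue) and 4 Alox15-/- (red) libraries, with 95% Wilson intervals; the dashed line marks an even division. For Entpd4 the shares lie between 43.9% and 55.7%, and for Gm27177 the WT libraries lie near the line while the few reads of the Alox15-/- libraries give wide intervals.

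The enzymes of the cell surface come first. Entpd1 (ENSMUSG00000048120.16, chr19:40612366-40741602, plus strand), which starts the removal of extracellular ATP, was at 48.3, 54.3, 39.5 and 36.4 CPM in Alox15-/- libraries 1 to 4 and at 49.4, 47.5, 37.4 and 42.0 CPM in WT libraries 1 to 4. The groups overlapped throughout, with Alox15-/- 2 highest and Alox15-/- 4 lowest. The means were 44.6 ± 8.19 and 44.1 ± 5.45 CPM (SD, n = 4 each), a log2 fold change of 0.0087 with a 95% interval from -0.29 to 0.31, from 201 to 373 reads a library. The libraries of each group spread more widely than the means differed.

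Nt5e (ENSMUSG00000032420.8, chr9:88327197-88372092, plus strand), which makes adenosine from AMP, was at 22.1, 20.2, 18.2 and 34.2 CPM in the Alox15-/- libraries and at 13.9, 10.2, 17.4 and 20.0 CPM in the WT libraries. Alox15-/- 4 stood above the rest, and Alox15-/- 3 lay below WT 4, so the groups overlapped. The means were 23.7 ± 7.18 and 15.4 ± 4.27 CPM (SD, n = 4 each), a log2 fold change of 0.64 (SE 0.22, 95% interval 0.17 to 1.12). Without Alox15-/- 4 the log2 fold change was 0.39. Its summed markers of other cells were 43.2 CPM for myeloid and 901 CPM for erythroid genes, the lowest of the Alox15-/- libraries, and their part in the Nt5e level was not tested. Among the 9 genes Nt5e was 1 of 2 with a positive log2 fold change, with Entpd1.

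Of the enzymes of the secretory pathway, those outside chromosome 14 overlapped between the groups. Entpd5 (ENSMUSG00000021236.16, chr12:84373857-84409029, minus strand), a UDPase of the endoplasmic reticulum that serves the folding of glycoproteins, was at 21.1, 22.7, 23.0 and 20.3 CPM in the Alox15-/- libraries and at 21.1, 25.0, 24.6 and 20.9 CPM in the WT libraries. Entpd6 (ENSMUSG00000033068.16, chr2:150749042-150771675, plus strand), which also occurs in a secreted form, was at 21.6, 20.0, 27.1 and 20.0 CPM against 22.6, 22.8, 24.1 and 20.3 CPM. Entpd7 (ENSMUSG00000025192.13, chr19:43689672-43733697, plus strand), an enzyme of intracellular vesicles, was at 15.6, 15.4, 14.1 and 16.5 CPM against 13.1, 15.5, 14.5 and 19.8 CPM. Entpd6 was highest in Alox15-/- 3 and Entpd7 in WT 4, and the ranges overlapped for each gene. Their log2 fold changes were -0.08 (95% interval -0.36 to 0.20) for Entpd5, -0.019 (-0.32 to 0.28) for Entpd6 and -0.019 (-0.36 to 0.33) for Entpd7. In the last 500 bases of Entpd7, 395 of 451 windows (87.6%) also lie on the opposite strand of Cox15, which was at 29.2 ± 2.37 and 26.6 ± 4.14 CPM (SD, n = 4 each), so the Entpd7 values carry the same doubt about strand as Gm27177 and Gm16867.

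Entpd4, a UDPase of the Golgi and of lysosomal vesicles, was lower. It was at 11.8, 11.6, 10.9 and 8.30 CPM in Alox15-/- libraries 1 to 4 and at 18.9, 15.0, 21.5 and 20.9 CPM in WT libraries 1 to 4. Every Alox15-/- library lay below every WT library. The means were 10.6 ± 1.61 and 19.0 ± 2.93 CPM (SD, n = 4 each), with a fitted fold of 0.552 relative to WT (log2 fold change -0.86, SE 0.18, 95% interval -1.23 to -0.48), from 43 to 58 reads against 94 to 214.

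Entpd4b, which codes for the same protein, was at 9.37, 14.6, 10.2 and 10.6 CPM in the Alox15-/- libraries and at 17.0, 14.5, 18.3 and 19.0 CPM in the WT libraries. The groups met at Alox15-/- 2 and WT 2, which differed by less than the counting error of 54 and 91 reads, and the other libraries were apart. The means were 11.2 ± 2.32 and 17.2 ± 1.97 CPM (SD, n = 4 each), with a fitted fold of 0.645 relative to WT (log2 fold change -0.63, SE 0.17, 95% interval -1.003 to -0.26). The adjusted p of 0.05 that was used as the threshold of a call lies between Entpd4, which was inside it, and Entpd4b, which was outside. The intervals of the copies overlap and their reads cannot be assigned by sequence, so this is no difference between them.

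With the reads of both copies added, the level was 21.1, 26.2, 21.1 and 18.9 CPM in the Alox15-/- libraries and 35.9, 29.5, 39.7 and 39.9 CPM in the WT libraries. The highest Alox15-/- library lay below the lowest WT library. The sum had a fitted fold of 0.597 relative to WT (21.8 ± 3.09 against 36.2 ± 4.88 CPM, SD, n = 4 each), with a log2 fold change of -0.74 (SE 0.14, 95% interval -1.05 to -0.43). This is the value that does not rest on how reads were divided between Entpd4 and Entpd4b.

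**Figure D2:**
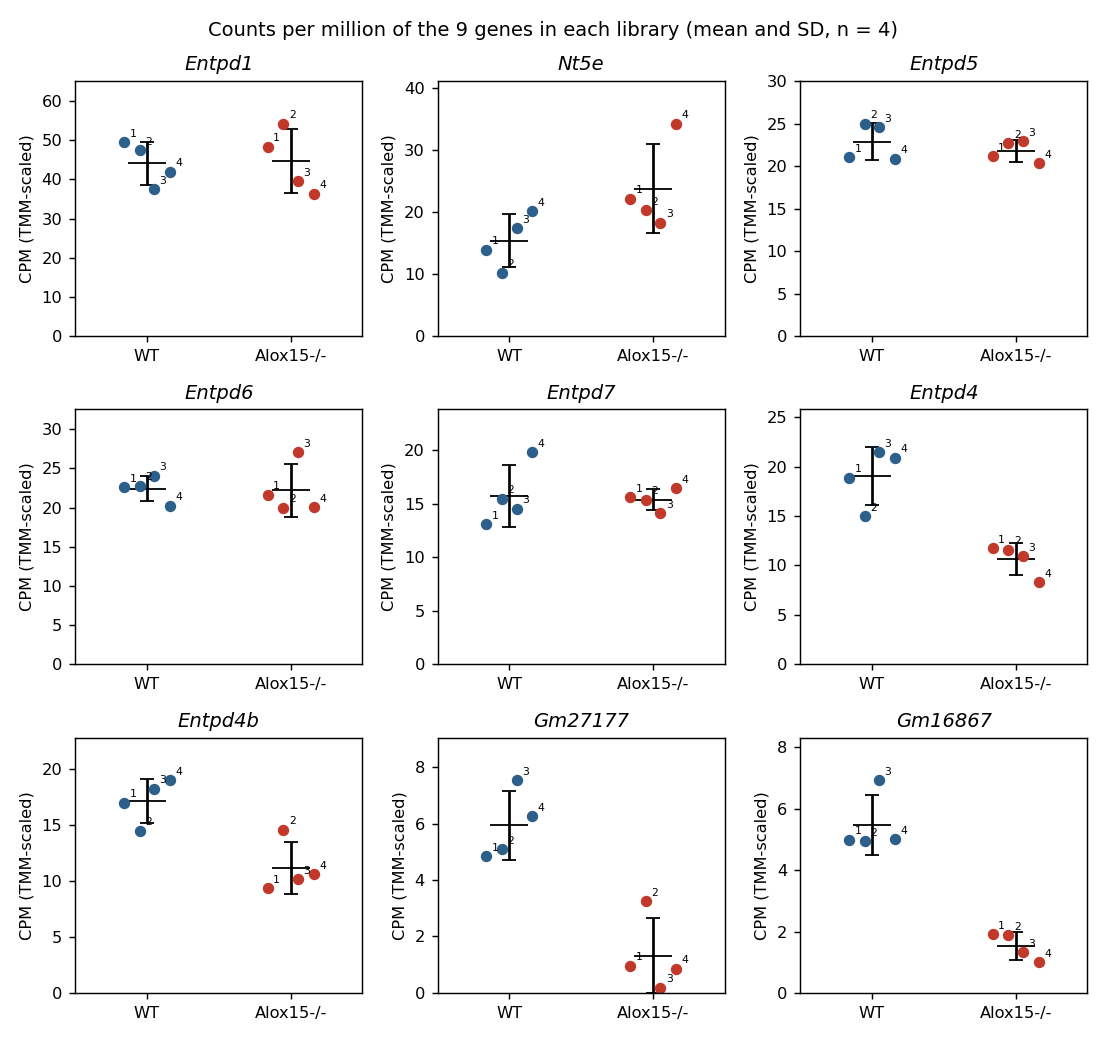
CPM, scaled by TMM, of each of the 9 genes in the 4 WT (blue) and 4 Alox15-/- (red) libraries, numbered by replicate, with the mean and SD of each group; the axes start at 0 and differ between genes. The groups do not overlap for Entpd4, Gm27177 and Gm16867, meet at 1 library each for Entpd4b and overlap for Entpd1, Nt5e, Entpd5, Entpd6 and Entpd7.

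The antisense genes were lower by a larger factor, on few reads. Gm27177 had 4, 12, 1 and 6 reads in Alox15-/- libraries 1 to 4 and 31, 32, 75 and 30 reads in WT libraries 1 to 4. This corresponds to 0.961, 3.24, 0.188 and 0.859 CPM against 4.83, 5.10, 7.53 and 6.26 CPM. The groups did not overlap, and Alox15-/- 2 stood above the other Alox15-/- libraries. The means were 1.31 ± 1.33 and 5.93 ± 1.23 CPM (SD, n = 4 each), with a fitted fold of 0.199 relative to WT (log2 fold change -2.33, SE 0.45, 95% interval -3.29 to -1.36). Without Alox15-/- 2 the log2 fold change was -3.13, so the size of the fold depends on that library.

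Gm16867 had 8, 7, 7 and 7 reads in the Alox15-/- libraries and 32, 31, 69 and 24 reads in the WT libraries, or 1.92, 1.89, 1.32 and 1.002 CPM against 4.99, 4.94, 6.92 and 5.01 CPM. The groups did not overlap, and WT 3 was the highest. The means were 1.53 ± 0.450 and 5.47 ± 0.972 CPM (SD, n = 4 each), with a fitted fold of 0.268 relative to WT (log2 fold change -1.90, SE 0.30, 95% interval -2.54 to -1.26). Gm16867 reached 2 CPM in 0 of the Alox15-/- libraries and Gm27177 in 1, against 4 WT libraries for each, so both passed the filter through the group in which they were high. Added together they were at 2.88, 5.13, 1.51 and 1.86 CPM against 9.83, 10.04, 14.4 and 11.3 CPM, a log2 fold change of -2.10 (SE 0.31).

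The same counts can be written as a share within each library, which adds no evidence to the folds above. Reads listed under the antisense genes made up 12%, 16.4%, 6.67% and 8.97% of all reads on the 4 rows in Alox15-/- libraries 1 to 4, a mean of 11.0% ± 4.20 (SD, n = 4). They made up 21.5%, 25.4%, 26.7% and 22.0% in WT libraries 1 to 4, a mean of 23.9% ± 2.52 (SD, n = 4). The highest share among the Alox15-/- libraries was below the lowest among the WT libraries. This share does not depend on the scaling of the libraries, and it holds only as far as the rows separate the strands, which is not known. With all 4 rows added into 1, the segment was at 24.7 ± 4.63 CPM in the Alox15-/- and at 47.6 ± 6.45 CPM in the WT libraries (SD, n = 4 each), a log2 fold change of -0.97 (SE 0.15, 95% interval -1.28 to -0.65). This sum needs neither the copy nor the strand of a read, provided that each read was counted once. Whether reads with several matches were dropped or counted more than once is not known.

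**Figure D3:**
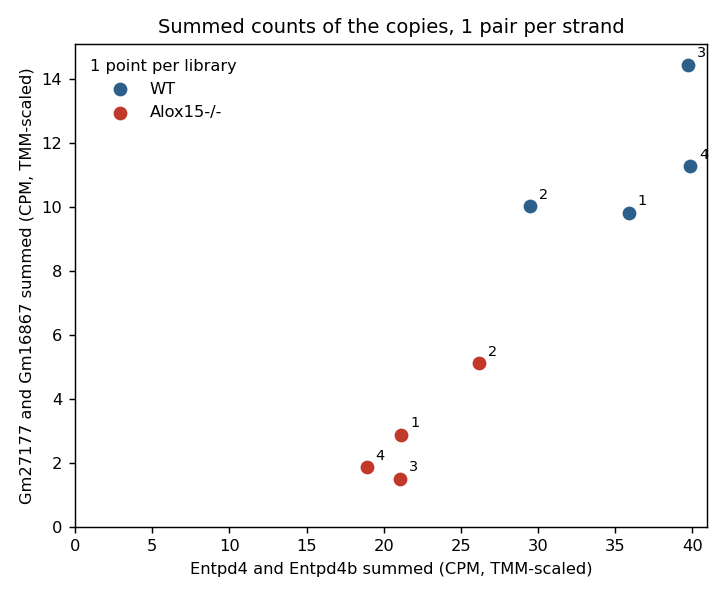
Summed CPM of Gm27177 and Gm16867 (vertical axis) against the summed CPM of Entpd4 and Entpd4b (horizontal axis), 1 numbered point for each WT (blue) and Alox15-/- (red) library. The Alox15-/- libraries lie at the lower left, between 18.9 and 26.2 CPM on the horizontal and 1.51 and 5.13 CPM on the vertical axis, apart from the WT libraries on both.

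Across all 12700 genes tested, the quasi-likelihood test of edgeR, adjusted by Benjamini–Hochberg, called 158 genes (1.24%), 25 lower (0.197%) and 133 higher (1.05%) in the libraries labelled Alox15-/-. Of the 9 genes, 3 were called, all 3 lower, namely Entpd4, Gm27177 and Gm16867. For 318 genes (2.5%) all 4 Alox15-/- libraries lay below all 4 WT libraries, and these same 3 were among them. Since the genes were selected with this comparison in view, nothing is read from these counts. The median log2 fold change was -0.08 for the 9 genes and -0.0073 for all genes tested, and 7 of the 9 were lower and 2 higher. With 1 library left out, Entpd4 was no longer called in 6 of 8 fits, and Gm27177 in 3 of 8. Over all 8 fits the log2 fold change ran from -0.96 to -0.74 for Entpd4 and from -3.13 to -1.94 for Gm27177. Gm16867 was still called in the 4 fits without an Alox15-/- library, and could not pass the filter without a WT library, since it reached 2 CPM in the 4 WT libraries alone. The direction of all 4 genes of chromosome 14 held in every such fit that gave a value. With the replicate number added to the fit as a block, Entpd4 was not called either (log2 fold change -0.85).

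Within the WT libraries the highest count was that of Entpd1, apart from Entpd5 in the next place. Entpd5, Entpd6, Entpd4, Entpd4b, Entpd7 and Nt5e followed in this order, each overlapping the next, and the antisense genes came last, apart from Nt5e. In the Alox15-/- libraries Entpd1 was again first, followed by Nt5e, Entpd6 and Entpd5, which overlapped, then by Entpd7, Entpd4b and Entpd4, and last by Gm16867 and Gm27177. Nt5e thus had rank 2 in the Alox15-/- and rank 7 in the WT libraries, and Entpd4 rank 7 and rank 4. The rank of Nt5e differed between libraries. It was far above Entpd5 and Entpd6 in Alox15-/- 4 (34.2 against 20.3 and 20.0 CPM), and slightly above both in Alox15-/- 1. In Alox15-/- 2 it lay between them, and in Alox15-/- 3 below both (18.2 against 23.0 and 27.1 CPM). These are orders of reads near 3′ ends, not divided by transcript length, and the 4 rows of chromosome 14 enter as listed.

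The neighbours of the 4 genes on chromosome 14 were also examined. Within 1000 kb of Entpd4, 34 genes were listed and 17 tested, 13 of them outside the 4. Of these 13, edgeR called 0, and 0 had an unadjusted p under 0.05, against 1.24% and 7.84% of all genes tested, so that counts of 0 are not particular to these neighbours. 6 had a positive and 7 a negative log2 fold change, the median was -0.09, and values ranged from -0.67 for Egr3, an activation-induced transcription factor, to 0.31 for Slc25a37, the mitochondrial iron carrier of erythroid cells. For 1 of the 13, Pdlim2 (-0.20, SE 0.11), all 4 Alox15-/- libraries lay below all 4 WT libraries, as for 2.5% of all genes tested. The nearest tested genes on either side were Slc25a37 (0.31, SE 0.17), which shares a stretch of sequence with Gm16867, and R3hcc1 (0.12, SE 0.13), followed by Chmp7 (-0.13, SE 0.12).

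Genes inside the segment that did not pass the filter had few reads. Gm27174, whose start lies 92 bases from that of Entpd4b on the opposite strand, had 0, 1, 0 and 1 reads in Alox15-/- libraries 1 to 4 and 3, 5, 6 and 2 reads in WT libraries 1 to 4. Each WT library thus had more than any Alox15-/- library. Gm16677, which starts 9 bases from Entpd4 in the same arrangement, had 1, 1, 2 and 1 against 4, 2, 3 and 1 reads, and these overlapped. Gm27176 and Gm27221 had 0 reads in the Alox15-/- libraries and 3 and 2 in the WT libraries. Gm27175, between the copies, went the other way with 1, 1, 4 and 1 against 1, 1, 1 and 1 reads, and Gm27223, before Entpd4, had 4 against 3 reads in total. Loxl2, which Gm27177 crosses on the opposite strand, had 9 reads against 14 in total, so at this depth no difference was detectable for it.

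**Figure D4:**
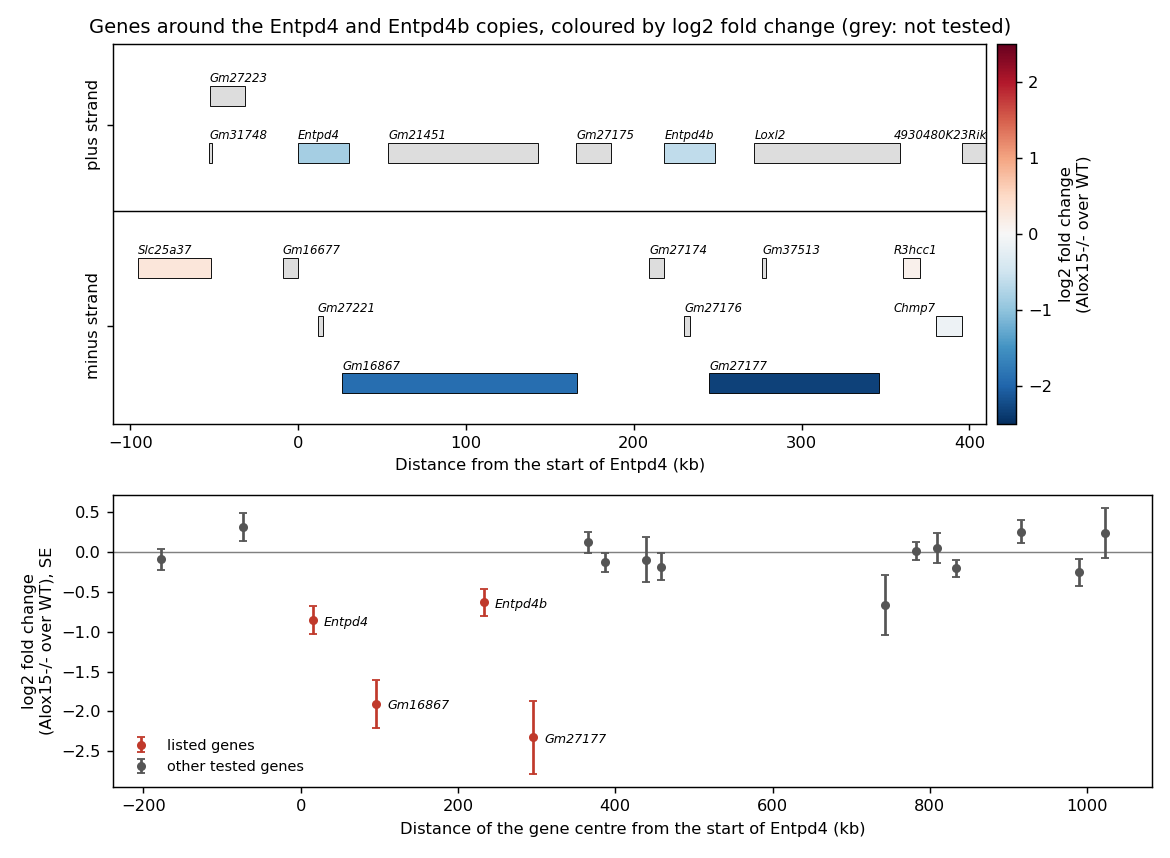
Upper panel, genes by strand against distance from the start of Entpd4 in kb, coloured by log2 fold change (grey, not tested). Lower panel, log2 fold change with SE of the 17 tested genes against the distance of their centres in kb, the 4 listed genes in red; these lie between -0.63 and -2.33 and the other 13 (grey) between -0.67 and 0.31.

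The sequence before the start of Entpd4b is shown because Entpd4b and Gm27174 start close to each other on opposite strands there. The 250 bases are from RefSeq (GRCm38.p6, chr14:69555151-69555400, plus strand), with matches to CACGTG and CCAAT in capitals.
Entpd4b: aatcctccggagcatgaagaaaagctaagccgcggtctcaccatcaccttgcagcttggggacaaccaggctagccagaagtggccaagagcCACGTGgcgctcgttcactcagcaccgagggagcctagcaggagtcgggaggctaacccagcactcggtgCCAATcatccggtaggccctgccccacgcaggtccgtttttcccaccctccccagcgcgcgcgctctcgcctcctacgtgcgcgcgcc
The window held 21 CG dinucleotides, against a median of 6 over 32851 promoters of this length. Of all promoters, 6.02% held CACGTG and 33.8% CCAAT or its reverse complement ATTGG, each searched on both strands. CCAAT was also found before Entpd1, Entpd7 and Gm16867, GGGCGG (32.7% of all) before Entpd7 and Nt5e, and TATAAA (12.4%) before none of the 7 genes with an entry. The table has no entry for Entpd4 and Gm27177. Such matches describe letters and do not show that a factor binds.

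Within the groups, the copies did not follow each other closely. After subtraction of the group mean, the log2 CPM of Entpd4 and Entpd4b had a Pearson r of 0.47 over the 8 libraries, although their transcripts are the same. The r was 0.76 between Entpd4 and Gm16867 and 0.73 between Entpd4b and Gm27177, and since reads cannot be assigned to a copy, nothing about a copy follows from these values. The 5 genes most like Entpd4 by this measure were Trdc (0.99), Eya3 (0.96), Limd1, Gm28229 and Trak2 (0.95 each), and Entpd4b ranked 1515th. Trdc, the constant region of the γδ T cell receptor, differed between the groups in the opposite direction to Entpd4, at 65.3 against 18.3 CPM. These correlations share libraries and depth and rest on 8 points.

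Other genes of nucleotide pathways outside cells, in the secretory pathway and in the cytosol were followed through 5 lists with 68 genes, 43 of them tested. In all, 1 of the 43 (2.33%) passed the threshold, against 1.24% of all genes, and 8 of the 43 (18.6%) had an unadjusted p under 0.05, against 996 of all 12700 genes (7.84%). These shares are a description, and nothing particular to the lists is read from them. Among 12 further genes, for other enzymes that act on nucleotides, NAD or adenosine outside cells and for the surface peptidase Dpp4, 5 were tested, of which 4 had a positive log2 fold change (median of the 5, 0.22). The gene that passed was Dpp4, which codes for CD26, a surface peptidase that does not act on nucleotides. It is listed because human CD26 binds adenosine deaminase, which the mouse protein is not known to do. None of the enzymes of this list that act on nucleotides, NAD or adenosine was called by edgeR (0, also at an unadjusted p under 0.05). It was at 15.6, 18.4, 15.8 and 14.03 CPM in the Alox15-/- libraries and at 8.42, 8.92, 9.83 and 6.47 CPM in the WT libraries. The groups were apart, with a log2 fold change of 0.89 (SE 0.18, adjusted p = 0.0159 over all genes tested by edgeR). Leaving out 1 library ended this call in 5 of 8 fits. Ada, the adenosine deaminase, was at 23.1 ± 3.57 and 23.4 ± 4.63 CPM (SD, n = 4 each), and Enpp1, which releases AMP from ATP, had a log2 fold change of 0.09 (SE 0.27).

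Downstream of the enzymes, 0 of the receptors tested passed the threshold of edgeR. Of 12 genes for adenosine receptors, transporters and removal, 8 were tested, 4 on either side of 0 (median 0.0057). The adenosine receptor Adora2a, the main one of T cells, had a log2 fold change of -0.41 (SE 0.33) at 4.50 and 6.17 CPM, and Adora2b one of 1.06 (SE 0.45, adjusted p = 0.573 in edgeR) at 3.76 and 1.80 CPM. The most abundant genes of this list, Pnp, Adk and Slc29a1, which remove or carry nucleosides, lay between -0.15 and 0.06. Of 18 genes listed as P2 receptors or for ATP release, 8 were tested, of which 7 had a positive log2 fold change (median of the 8, 0.12). P2ry14, the receptor of UDP and UDP-glucose, was at 4.81, 5.40, 3.95 and 2.58 CPM against 2.18, 1.12, 0.702 and 2.30 CPM. All Alox15-/- libraries lay above all WT libraries, and the gene did not pass the threshold (log2 fold change 1.44, SE 0.39, adjusted p = 0.131 in edgeR). The most abundant genes here, P2ry10, Panx1 and Lrrc8a, lay between -0.02 and 0.17, and P2ry10, despite its name, codes for a receptor of lysophospholipids.

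Within the secretory pathway, where Entpd4 acts, the list of nucleotide sugar transporters and UDP and GDP reactions had 17 of 19 genes tested, of which 12 had a negative log2 fold change (median of the 17, -0.08). EdgeR called 0 of them, and 3 of 17 (17.6%) had an unadjusted p under 0.05. Uggt1, the glycoprotein folding sensor that releases UDP, was at -0.03, and Cmpk1 and Ugp2, which use and make uridine nucleotides, were at 0.08 and 0.03. The lowest was Slc35d2 (-0.45, SE 0.20, adjusted p = 0.601 in edgeR), a nucleotide sugar transporter, still above Entpd4 at -0.86. Of 7 intracellular 5′-nucleotidases 5 were tested, of which 3 had a negative log2 fold change (median of the 5, -0.07). Nt5c2 was at -0.34 (SE 0.12, adjusted p = 0.401 in edgeR), with all Alox15-/- libraries below the WT libraries, and the most abundant, Nt5c, Nt5c3b and Nt5c3, lay between -0.14 and 0.02.

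**Figure D5:**
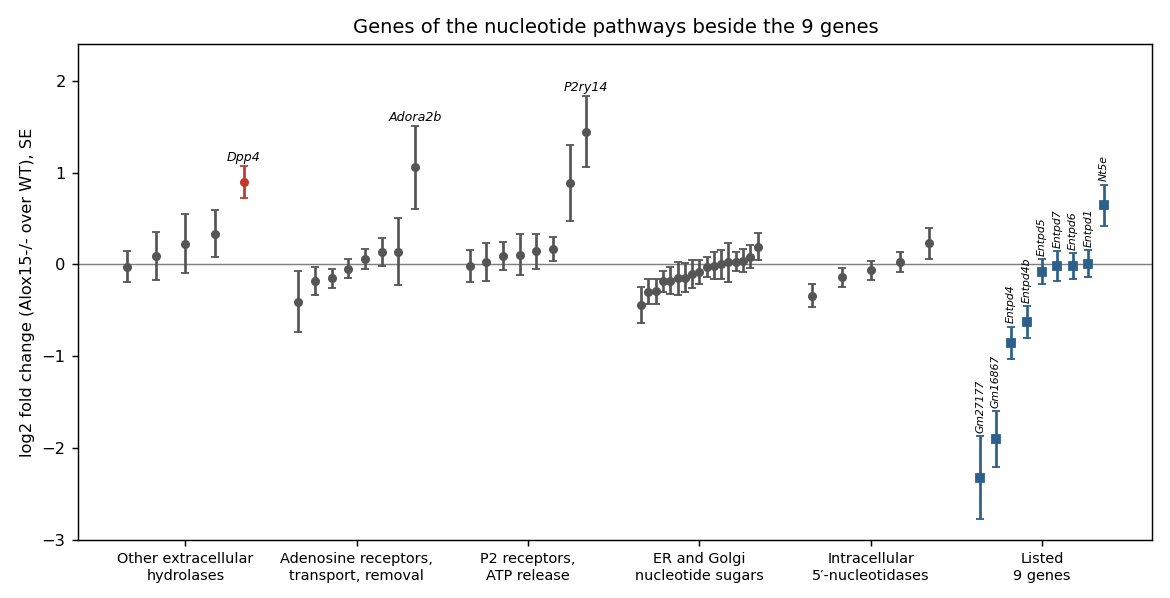
Log2 fold change with SE of the tested genes of 5 pathway lists (circles, in red past an adjusted p of 0.05) and of the 9 listed genes (squares), each group sorted by value. Dpp4 at 0.89 is the 1 called pathway gene, and the 4 genes of chromosome 14 lie between -0.63 and -2.33, below the lowest pathway gene, Slc35d2 at -0.45.

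The higher markers of other cells in the libraries labelled Alox15-/- stand beside these differences, and their part in them was not tested. Alox15-/- 2 and 3 had the highest erythroid sums, 3290 and 3465 CPM. Without both libraries the log2 fold change was -0.95 for Entpd4, -0.77 for Entpd4b, -2.70 for Gm27177, -1.99 for Gm16867 and 0.90 for Nt5e, in the same direction as with them, and Entpd4 and Gm16867 were no longer called. The libraries kept, Alox15-/- 1 and 4, still had erythroid sums of 1087 and 901 CPM, against 32.3 to 121 CPM in WT. The difference in markers thus remained in this fit, and nothing about the part of other cells is read from it. Among the Alox15-/- libraries, Entpd4 was lowest in Alox15-/- 4, with the lowest erythroid sum (901 CPM), and Gm27177 was lowest in Alox15-/- 3, with the highest.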

How the data were processed

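RNA of T cells cultured for 2 days was profiled in 4 libraries labelled Alox15-/- and 4 labelled WT. What the authors deposited are raw counts for each symbol, not normalized, from reads that had been cleaned and trimmed per the labels. The submitters' processing notes name Bowtie, edgeR and GRCm38. The counting tool, its strand setting and its treatment of reads with several matches are not given in the sources used here. Nothing says whether the libraries were separate cultures beyond the 4 mice per group, so p-values measure the spread between these libraries.

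Columns were matched to libraries by name. Genes that reached 2 CPM in 4 or more libraries were kept, following the methods of the study. Counts were scaled by TMM and fitted with edgeR 4.0.16 (quasi-likelihood test, two-sided, Benjamini–Hochberg over all 12700 genes, threshold 0.05) in R 4.3.3, without a replicate block. The biological coefficient of variation was 14.5%. The fit was tested on simulated data. Marker sums were compared as log2(CPM + 1) by an exact permutation test in scipy 1.17.1. Positions and transcripts came from GENCODE vM21 of GRCm38, promoters from RefSeq, and similar transcripts were found with blastn 2.17.0. Proteins were translated and aligned with Biopython 1.88. 

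The members and lists were chosen with earlier results of these data known. The genes named are the 9 members, genes of each pathway list past the threshold and its 3 most abundant, genes with a similar transcript, and the 5 closest to Entpd4. Neighbours on chromosome 14, Ada, Enpp1, Adora2a, Adora2b, P2ry14, Slc35d2 and Nt5c2 were named after their values were seen. Alternatives were DESeq2 1.42.0, its size factors, limma-voom (limma 3.58.1), other filters, a prior count of 0.5, the replicate block, summed copies and each library left out.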

Additional observations from a re-analysis of the deposited data

Results flagged for a closer look

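In the WT libraries, Gm16867 was at 6.92 CPM in WT 3 against 4.94, 4.99 and 5.01 CPM in WT 2, 1 and 4. The gap to the nearest library was 0.964 of the whole range, above Dixon's critical value of 0.829 for 4 samples. Of 38 groups of 4 libraries examined, this was the 1 that stood out, and chance alone flags about 1 in 20. WT 3 also had the most reads on Gm27177 (75) and on Entpd4 (214), and all 4 Alox15-/- libraries remained below the other WT libraries.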

How the results depend on the processing

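Without the filter 388 genes were called in place of 158, 2 of them in place of 1 in the extracellular list that holds Dpp4 and 1 in place of 0 among P2 receptors, Nt5e (0.62) was then called, and Entpd1 turned to -0.013. With limma-voom Entpd1 was at -0.011 and Entpd7 at 0.013. Leaving out 1 library in turn gave 86 to 173 genes called, 0 to 1 called in the list with Dpp4, and log2 fold changes from -0.094 to 0.10 for Entpd1, -0.13 to 0.034 for Entpd6, -0.095 to 0.10 for Entpd7, -0.96 to -0.74 for Entpd4 and -3.13 to -1.94 for Gm27177. Without any 1 WT library Gm16867 did not pass the filter and has no value. With the replicate block Entpd4 was at -0.85 and no longer called, and no other gene of the 9 changed its call. Same-numbered libraries had correlations of 0.07, 0.17, -0.18 and -0.02, so the numbers were not taken as pairs. With the copies summed, the Entpd4b row became -0.74 and was called, and with all 4 rows summed, an alternative chosen after seeing the data, -0.97. Without the 2 libraries of highest erythroid sums, also chosen after seeing the data, 60 genes were called, Entpd4 (-0.95) and Gm16867 (-1.99) were not, and Entpd1 was at -0.061 and Entpd7 at 0.046. Of these changes, losses with fewer libraries come with fewer samples, and for the rest the cause was not tested. The 4 genes of chromosome 14 kept their direction in each alternative that gave a value. Depth limits Gm27177 and Gm16867, which had 1 to 12 reads in the Alox15-/- libraries.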
